A study of Mus musculus with 19 samples.

Results

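Transcripts of 38 genes that remove bulky DNA adducts by nucleotide excision repair, or copy DNA past them, were examined in mouse lung after repeated exposure to polycyclic aromatic hydrocarbons (PAHs). The genes were taken as a fixed list of damage recognition factors, subunits of the general transcription factor TFIIH, incision nucleases, gap-filling enzymes and bypass polymerases, and every array probe whose RefSeq identifier maps to a listed gene was included. This gave 48 probes for the 38 genes, of 55681 probes on the array. Of these, 44 probes for 37 genes passed the filter on dim signals, and 43 of the 44 had a lung signal well above background in all 18 mice. Both probes of Rrm2b, a p53-dependent ribonucleotide reductase subunit, failed the filter. The lung signal of the brighter Rrm2b probe was well above background in 1 of 5, 1 of 4, 1 of 5 and 0 of 4 mice of D0, D1, D2 and D3, and that of the other probe in none, so no fold change is given for this gene.

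The animals were male MutaMouse specimens about 12 weeks old of a transgenic strain on a BALB/C-DBA/2 background, housed singly. They were gavaged daily for 28 days with olive oil alone (D0, 5 mice) or with a mixture of 8 PAHs in olive oil at 15 (D1, 4 mice), 30 (D2, 5 mice) or 60 (D3, 4 mice) mg/kg of body weight a day, expressed as benzo[a]pyrene equivalents, and the lung was taken 72 h after the last dose. The mixture held benzo[a]pyrene, chrysene, benz[a]anthracene, dibenz[ah]anthracene, indeno[1,2,3-cd]pyrene, benzo[ghi]perylene and the b and k isomers of benzofluoranthene. Each of 19 two-colour Agilent arrays compared lung RNA (Cy5, red) with a reference RNA pooled from mouse cell lines (Cy3, green). All values are log2 ratios of lung over reference, and a change is the difference between the mean log2 ratios of a dose group and of D0. Mouse 35 of D3 had 2 arrays, which were averaged. The array labelled D2 Mouse 23 carries a number from the D1 range, and it was kept in D2 as labelled. The methods of the study give other group sizes than the labels, and theirs match with this mouse in D1. Counted there, it left 3, 6 and 8 member probes higher at D1, D2 and D3 after adjustment, where the labelled groups gave 4, 5 and 8. Calls among all probes in either direction were then 1437, 633 and 3857, against 1468, 647 and 3843 with the labelled groups. The array column on each slide followed the dose, which means that dose and column cannot be told apart. Among the markers of 12 lung and neighbouring cell types found on the array, only Dnah9, a ciliary dynein, was well above background in no mouse. In 3 dosed mice (24 of D1, 28 of D2 and 35 of D3) the mean ratio of heart muscle markers stood far below that of the other 15 mice. Without these 3 mice, a setting chosen after the data were seen, 4, 1 and 6 member probes were higher at D1, D2 and D3. Calls among all probes in either direction fell as well, to 1292, 490 and 2500. In RNA from whole lung, fewer cells of a type and less RNA per cell cannot be told apart.

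PAHs are oxidised by enzymes of the lung and liver to diol epoxides, which bind guanine and form bulky adducts. Nucleotide excision repair finds such lesions by their distortion of the helix or by a stalled RNA polymerase, opens the DNA with the helicases of TFIIH, cuts the damaged strand on both sides and fills the gap. Adducts that persist into replication block the replicative polymerases, and specialised polymerases such as Polk, which is known for copying past benzo[a]pyrene adducts, can then take over.

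At D3, 8 of the 44 probes (18.2%) rose and none fell once p was adjusted by Benjamini-Hochberg (threshold 0.05) in limma, a linear model fitted to all 30999 probes tested. The 8 were Polk, Rev1 and Mad2l2 of lesion bypass, Rpa1 and Rpa2 of single-strand binding, Ercc3 of TFIIH, Ercc6 of transcription-coupled recognition and Pole of gap filling. Over all 30999 probes, 6.03% rose and 6.37% fell at D3. At D1, 4 probes rose (Ercc3, Ercc6, Rpa2 and Pole) against 2.42% of all probes, and 0 fell against 2.32%. At D2, 5 rose (Ercc6, Rpa2, Pold1, Pole and Lig1) against 1.37%, and 0 fell against 0.719%. The sizes were small. Only Polk at D3 and Pole at D2 were also past 1.5-fold, and D1 had 0 such members. Among all probes, 1.06%, 0.626% and 2.43% were past both thresholds at D1, D2 and D3 in either direction. At an unadjusted p of at most 0.05 in the same limma fit, 14 probes were higher and 2 lower at D1, 12 and 1 at D2, and 15 and 2 at D3. Of all probes, 10.4% were higher and 9.41% lower at D1 by that measure, 7.87% and 6.87% at D2, and 13.1% and 13.1% at D3. The median change of the 44 probes was 0.12 at D1, 0.09 at D2 and 0.15 at D3, beside 0.01, 0.00 and 0.00 over all probes tested. Of the 44 changes, 32, 32 and 33 were above 0 at D1, D2 and D3.

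**Figure D1:**
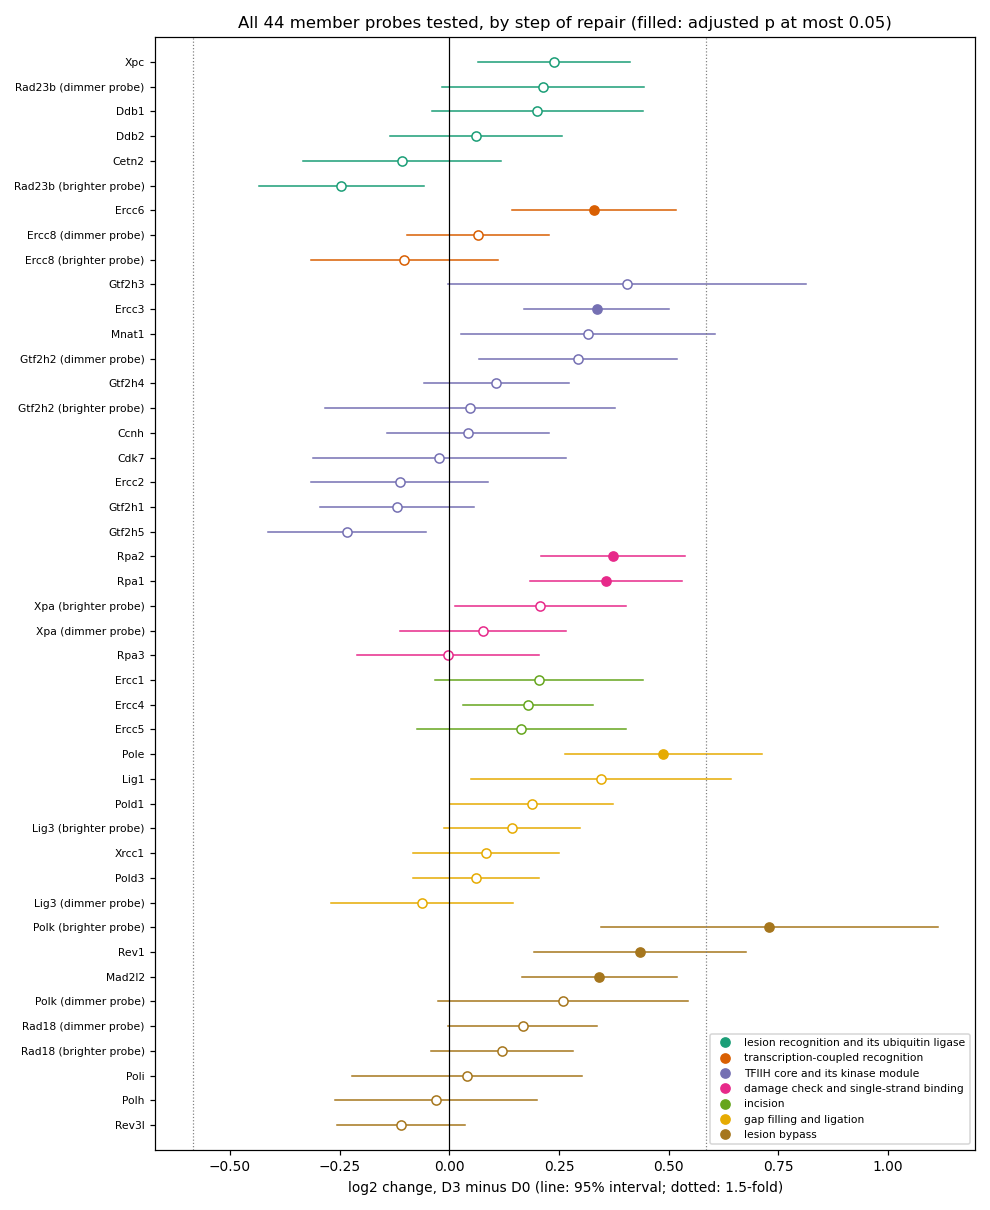
Change of each of the 44 member probes tested at D3 against D0, as log2 difference of group means with its 95% interval, coloured by step of repair; filled points passed the adjusted p of 0.05 and dotted lines mark 1.5-fold. The 8 filled points all lie above 0, between 0.33 (Ercc6) and 0.73 (Polk).

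Each slide held all 4 groups, and a fit with slide as a block called more probes, members and others alike. In that fit mouse 35, with its arrays on slides 2 and 3, was split equally between these slides. Slide 3 held no other D3 array. With the block, 7 probes rose and 1 fell at D1, 6 rose at D2, and 13 rose and 2 fell at D3. Of all probes, 4.14% rose and 4.31% fell at D1 in that fit, 2.63% and 1.85% at D2, and 8.76% and 9.28% at D3. Added at D1 were Ercc1, Pold1 and the dimmer Gtf2h2 probe, with Gtf2h5 as the one that fell, and Rev1 was added at D2. Added to the 8 at D3 were Xpc, Gtf2h3, Ercc4, Lig1 and the dimmer Gtf2h2 probe, and the 2 that fell were Gtf2h5 and the brighter Rad23b probe. Centring each array on its median in place of loess normalization shifted the median change of all probes to 0.17 at D1, 0.12 at D2 and 0.06 at D3 and left no member probe past the adjusted p. That setting left 12, 18 and 98 calls among all probes at D1, D2 and D3, where loess gave 1468, 647 and 3843. The median change of the members was then 0.36, 0.26 and 0.24.

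The upstream 250 bases of Ercc6, Rev1, Rpa1 and Rpa2 are shown because these genes rose at D3. Of the 8 members that rose at D3, 6 were in the promoter table, and 2 of the 6 (Ercc6 and Rev1) held the letters GCGTG, the core bound by the dioxin receptor AHR, to which PAHs bind. Both promoters of Polk and both of Mad2l2, not printed, held none. The sequences are from RefSeq (build GRCm38.p6, chr14:32513271-32513520, plus strand for Ercc6, chr1:38129667-38129916, minus strand for Rev1, chr11:75348384-75348633, minus strand for Rpa1 and chr4:132768110-132768359, plus strand for Rpa2), run up to the transcription start and are written in the direction of transcription. Capitals mark GCGTG on either strand, and no other searched motif occurs in these 4 sequences.
Ercc6: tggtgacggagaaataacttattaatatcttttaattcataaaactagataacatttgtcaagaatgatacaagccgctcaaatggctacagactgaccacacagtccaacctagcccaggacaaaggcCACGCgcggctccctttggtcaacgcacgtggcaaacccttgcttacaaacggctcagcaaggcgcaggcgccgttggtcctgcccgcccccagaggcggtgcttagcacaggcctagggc
Rev1: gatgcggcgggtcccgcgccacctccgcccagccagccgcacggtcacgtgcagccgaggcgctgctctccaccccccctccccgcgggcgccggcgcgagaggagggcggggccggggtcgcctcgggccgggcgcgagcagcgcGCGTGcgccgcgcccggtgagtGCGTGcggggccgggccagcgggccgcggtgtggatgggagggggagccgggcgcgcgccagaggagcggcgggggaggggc
Rpa1: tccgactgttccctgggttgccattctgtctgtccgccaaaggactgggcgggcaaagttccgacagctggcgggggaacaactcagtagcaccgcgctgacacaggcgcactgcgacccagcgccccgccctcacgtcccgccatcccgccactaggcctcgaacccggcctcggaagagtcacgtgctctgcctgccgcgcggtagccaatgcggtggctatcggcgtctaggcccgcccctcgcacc
Rpa2: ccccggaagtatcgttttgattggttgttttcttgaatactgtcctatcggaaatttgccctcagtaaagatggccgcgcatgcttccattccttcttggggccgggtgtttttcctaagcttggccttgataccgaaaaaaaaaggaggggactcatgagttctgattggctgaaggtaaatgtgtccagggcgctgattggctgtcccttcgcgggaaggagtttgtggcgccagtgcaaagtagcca
Counted from the start site, with the last base before it as -1, the match begins at -121 in Ercc6 and at -104 and -82 in Rev1. The table held 36 promoters for 30 of the 38 genes. GCGTG or its reverse complement occurred in 16 of the 36 (44.4%), from 14 genes, and in 28.2% of all 32851 promoters in the table. The E2F motifs TTTCCCGC and TTTGGCGC, also searched on both strands, occurred in 0 of the 36 and in 1.3% of all promoters. A p53 half-site occurred in 2 of the 36 (5.56%), Cetn2 and 1 of the pair for Polk, and in 7.13% of all promoters. These are matches of letters, and binding was not measured.

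Among the recognition factors, which find the lesion and mark it for repair, no probe passed at any dose. Xpc, which binds the distorted strand, had log2 ratios of 1.00, 1.00, 1.19, 1.08 and 1.20 in the vehicle mice, 1.17, 1.19, 1.41 and 1.34 at D1, 1.24, 1.10, 1.28, 1.43 and 1.21 at D2 and 1.23, 1.25, 1.45 and 1.41 at D3. All 4 D3 mice lay above all 5 vehicle mice. The change at D3 was 0.24 ± 0.08 (SE; adjusted p = 0.066, limma), and it was 0.25 with an adjusted p of 0.00936 with slide as a block, and over the alternatives that keep every mouse its adjusted p ran from 0.00936 to 0.848. Its helper Rad23b had 2 probes that pointed apart, at -0.25 for the brighter (adjusted p = 0.0834) and 0.21 for the dimmer at D3. Ddb2, the damage sensor of the ubiquitin ligase that also holds Ddb1 and is known as a p53 target in human cells, had ratios of 0.10, -0.27, 0.02, -0.25 and 0.20 in the vehicle mice, 0.03, -0.06, -0.07 and -0.05 at D1, 0.12, 0.23, 0.19, -0.02 and 0.20 at D2 and 0.13, -0.10, 0.08 and -0.02 at D3. Its groups overlapped at every dose, and the change at D3 was 0.06 with a 95% interval from -0.14 to 0.26. Ddb1 (0.20 at D3) and Cetn2 (-0.11) did not pass either.

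Of the pair that senses a stalled RNA polymerase, Ercc6 (Cockayne syndrome B, a chromatin remodeller) rose at all 3 doses. Its ratios were -0.17, -0.04, -0.11, -0.23 and -0.02 in the vehicle mice, 0.02, 0.28, 0.37 and 0.22 at D1, 0.25, 0.19, 0.33, 0.40 and 0.06 at D2 and 0.39, 0.07, 0.17 and 0.23 at D3. Every dosed mouse was above every vehicle mouse, and the doses overlapped one another. The changes were 0.33 ± 0.09, 0.36 ± 0.08 and 0.33 ± 0.09 at D1, D2 and D3 (adjusted p = 0.0367, 0.027 and 0.02). Single mice decided these calls. At D1 the adjusted p missed 0.05 when any of D0 mice 1, 3 and 4 or of D1 mice 22, 24 and 25 was left out, at D2 when any of D0 mice 1, 3 and 4 or of D2 mice 28 and 29 was, and at D3 when D0 mouse 4, D3 mouse 31 or D3 mouse 35 was. Its partner Ercc8 (Cockayne syndrome A) differed from vehicle by -0.10 and 0.07 on its 2 probes at D3 and did not pass.

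TFIIH opens the DNA around the lesion with 2 helicases, Ercc3 and Ercc2, held in a core with the Gtf2h subunits, and also carries the kinase module of Cdk7, Ccnh and Mnat1. Only Ercc3 passed, at D1 and D3. Its ratios were -0.27, -0.10, -0.24, -0.26 and -0.19 in the vehicle mice, -0.06, 0.22, 0.09 and 0.19 at D1, -0.14, -0.20, 0.12, 0.01 and -0.18 at D2 and 0.15, 0.05, 0.09 and 0.20 at D3. All D1 and all D3 mice lay above all vehicle mice, while D2 overlapped with them. The change was 0.32 ± 0.08 at D1 (adjusted p = 0.0242), 0.14 ± 0.07 at D2 (adjusted p = 0.423) and 0.34 ± 0.08 at D3 (adjusted p = 0.00901). At D1 it no longer passed when any of D0 mice 1, 3 and 4 or of D1 mice 22 and 25 was left out, nor with processed signals, with mouse 23 counted in D1 or in a fit of only the groups compared. The opposite helicase Ercc2 was at -0.11 at D3 and did not pass. Over the 11 TFIIH probes the changes at D3 ran from -0.23 (Gtf2h5) to 0.41 (Gtf2h3), with 7 above 0 and a median of 0.05. Gtf2h5, a small stabilising subunit, was at -0.27, -0.16 and -0.23 at D1, D2 and D3 (adjusted p = 0.085 at D3), and at -0.02 at D3 under median centring. Mnat1, which assembles the kinase module, had all D1 and all D3 mice above all vehicle mice with changes of 0.39 and 0.32, but did not pass (adjusted p = 0.116 and 0.149), whereas it passed at both doses in fits of only the groups compared (adjusted p = 0.0379 and 0.03).

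Once the DNA is open, Xpa checks the damage and the heterotrimer of Rpa1, Rpa2 and Rpa3 covers the undamaged strand; the trimer also serves replication and recombination. Rpa2 rose at all 3 doses and Rpa1 at D3. The Rpa2 ratios were -1.10, -1.21, -1.34, -1.21 and -1.05 in the vehicle mice, -0.83, -0.68, -0.85 and -1.00 at D1, -0.81, -0.92, -0.72, -0.86 and -0.95 at D2 and -0.82, -0.77, -0.88 and -0.77 at D3. No dosed mouse fell within the vehicle range. The Rpa2 changes were 0.35 ± 0.08, 0.33 ± 0.07 and 0.37 ± 0.08 (adjusted p = 0.015, 0.0216 and 0.00422), or 1.29-fold at D3. It no longer passed at D1 when D1 mouse 22 was left out, nor at D2 when D0 mouse 3 or D2 mouse 28 was. The Rpa1 ratios were -1.09, -1.15, -1.00, -1.18 and -1.04 in the vehicle mice, -0.74, -0.98, -0.94 and -1.02 at D1, -0.95, -0.81, -0.68, -1.11 and -0.82 at D2 and -0.71, -0.75, -0.75 and -0.73 at D3. The 4 D3 mice stood close together, above all 5 vehicle mice, and the lower doses overlapped with the vehicle. Rpa1 rose by 0.36 ± 0.08 at D3 (adjusted p = 0.008), beside differences that did not pass of 0.17 at D1 and 0.22 at D2. Rpa3, the smallest subunit, was at differences of 0.08, 0.14 and 0.00 at D1, D2 and D3. Xpa was at 0.21 and 0.08 on its 2 probes at D3. Neither Rpa3 nor Xpa passed.

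The nucleases that cut on either side of the lesion, Ercc5 (Xpg) on one side and the pair of Ercc1 and Ercc4 (Xpf) on the other, did not pass at any dose. Their changes at D3 were 0.20 for Ercc1, 0.18 for Ercc4 and 0.16 for Ercc5. All D3 mice, and all D1 mice, were above all vehicle mice for Ercc1, whose change was 0.37 at D1 (adjusted p = 0.068) and -0.12 at D2. With slide as a block Ercc1 passed at D1 (0.34, adjusted p = 0.0322) and Ercc4 at D3 (0.19, adjusted p = 0.0417). Ercc4 also passed at D3 with the red channel alone (0.20, adjusted p = 0.041), and Ercc1 at D1 without D1 mouse 22 (0.44, adjusted p = 0.0467).

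Among the enzymes that fill and seal the gap, which also copy and join DNA in replication, Pole rose at all 3 doses and Pold1 and Lig1 at D2. Pole is the catalytic subunit of DNA polymerase epsilon. Its ratios were -3.30, -3.43, -3.36, -3.15 and -3.14 in the vehicle mice, -2.67, -3.02, -2.52 and -2.63 at D1, -2.64, -2.79, -2.55, -2.79 and -2.62 at D2 and -2.87, -3.00, -2.71 and -2.55 at D3. Every dosed mouse exceeded every vehicle mouse. The changes of Pole were 0.56 ± 0.11, 0.59 ± 0.10 and 0.49 ± 0.11 at D1, D2 and D3 (adjusted p = 0.00495, 0.00351 and 0.00571), or 1.48-fold, 1.51-fold and 1.4-fold. The second Pole probe was too dim to test. Pold1, the catalytic subunit of DNA polymerase delta, had ratios of -1.68, -1.89, -1.54, -1.76 and -1.78 in the vehicle mice, -1.36, -1.68, -1.29 and -1.51 at D1, -1.47, -1.47, -1.29, -1.41 and -1.25 at D2 and -1.51, -1.63, -1.59 and -1.44 at D3. At D2 all 5 mice were above the vehicle range, and the other doses overlapped with it. Pold1 rose by 0.35 ± 0.08 at D2 (adjusted p = 0.0329), beside differences that did not pass of 0.27 at D1 and 0.19 at D3. At D2 it no longer passed when any of D0 mice 1, 2, 4 and 5 or of D2 mice 28, 29 and 30 was left out, while at D1 it passed with slide as a block (0.29, adjusted p = 0.0422). Lig1, the ligase that seals replication and repair gaps, had ratios of -2.16, -2.23, -2.47, -2.62 and -2.49 in the vehicle mice, -1.97, -2.05, -2.21 and -2.00 at D1, -2.04, -1.49, -1.53, -2.30 and -2.01 at D2 and -2.07, -1.87, -2.24 and -2.01 at D3. The groups overlapped at every dose. The Lig1 change at D2 was 0.52 ± 0.13 with an adjusted p of 0.0497, and the call was lost under 24 of 30 alternative settings. Among the settings that leave out 1 mouse it was kept only without D0 mouse 1 or D2 mouse 29. Pold3, Lig3 and Xrcc1 had differences between -0.06 and 0.14 at D3, and none of their 4 probes passed.

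Lesion bypass held the largest change among the members. Polk, the polymerase known for accurate bypass of benzo[a]pyrene adducts on guanine, rose at D3 on its brighter probe. The log2 ratios of that probe were -0.54, -0.19, -0.59, -0.05 and -0.46 in the vehicle mice, -0.09, 0.11, -0.26 and 0.31 at D1, -0.56, 0.36, 0.27, 0.31 and 0.23 at D2 and 0.40, 0.60, -0.10 and 0.57 at D3. Of the 4 D3 mice 3 lay above all vehicle mice and mouse 34 lay within their range, and D2 mouse 23 was far below the other D2 mice. The change was 0.38 ± 0.18 at D1 (adjusted p = 0.255), 0.48 ± 0.17 at D2 (adjusted p = 0.169) and 0.73 ± 0.18 at D3 (adjusted p = 0.0134), or 1.66-fold at D3. Without D3 mouse 35 the D3 change was 0.66 (adjusted p = 0.0511; 0.00348 to 0.338 over all 30 alternatives), and without D2 mouse 23 the D2 change was 0.65 (adjusted p = 0.0246). The dimmer Polk probe, which carries the same RefSeq identifier, had a difference of 0.26 ± 0.14 at D3 (adjusted p = 0.238). Its ratios were -0.36, -0.16, 0.15, 0.34 and -0.01 in the vehicle mice, -0.24, 0.21, 0.36 and 0.15 at D1, 0.38, 0.05, 0.28, 0.44 and 0.23 at D2 and 0.17, 0.20, 0.13 and 0.50 at D3. The groups of the dimmer probe overlapped at every dose, so the Polk call rests on 1 of 2 probes; with the red channel alone the dimmer probe passed at D3 (0.36, adjusted p = 0.0104).

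**Figure D2:**
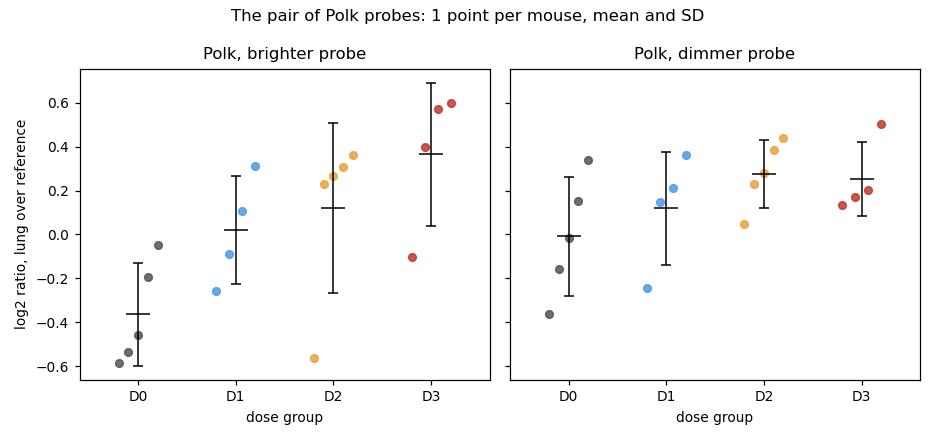
Log2 ratio of lung over reference for both Polk probes in each mouse by dose group, with the mean and SD of each group. The brighter probe has a D3 mean above D0 by 0.73, the dimmer probe by 0.26.

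Rev1, a scaffold that recruits other bypass polymerases, rose at D3. Its ratios were -0.62, -0.36, -0.63, -0.50 and -0.43 in the vehicle mice, -0.18, 0.06, -0.23 and -0.49 at D1, -0.33, 0.17, -0.17, -0.19 and -0.20 at D2 and 0.13, -0.19, -0.26 and 0.02 at D3. All D2 and all D3 mice were above all vehicle mice, and D1 mouse 25 lay within the vehicle range. The change at D3 was 0.43 ± 0.12 (adjusted p = 0.0183), 0.30 at D1 and 0.37 at D2, and the D3 call was lost without D3 mouse 31 or D3 mouse 35. Mad2l2 (Rev7), the accessory subunit of DNA polymerase zeta that also acts in double-strand break repair, had ratios of -0.77, -0.83, -0.94, -0.98 and -0.61 in the vehicle mice, -0.60, -0.63, -0.66 and -0.64 at D1, -0.66, -0.77, -0.46, -0.87 and -0.79 at D2 and -0.52, -0.48, -0.49 and -0.45 at D3. The 4 D3 mice lay in a narrow band above all vehicle mice. Its change was 0.34 ± 0.08 at D3 (adjusted p = 0.0117), 0.19 at D1 and 0.12 at D2. The catalytic subunit of the same polymerase, Rev3l, had differences of -0.20, 0.00 and -0.11 and did not pass. The related bypass polymerases Polh and Poli had differences of -0.03 (95% interval -0.26 to 0.20) and 0.04 (-0.22 to 0.30) at D3. Rad18, the ligase that marks PCNA for bypass, had differences of 0.12 and 0.17 on its 2 probes.

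**Figure D3:**
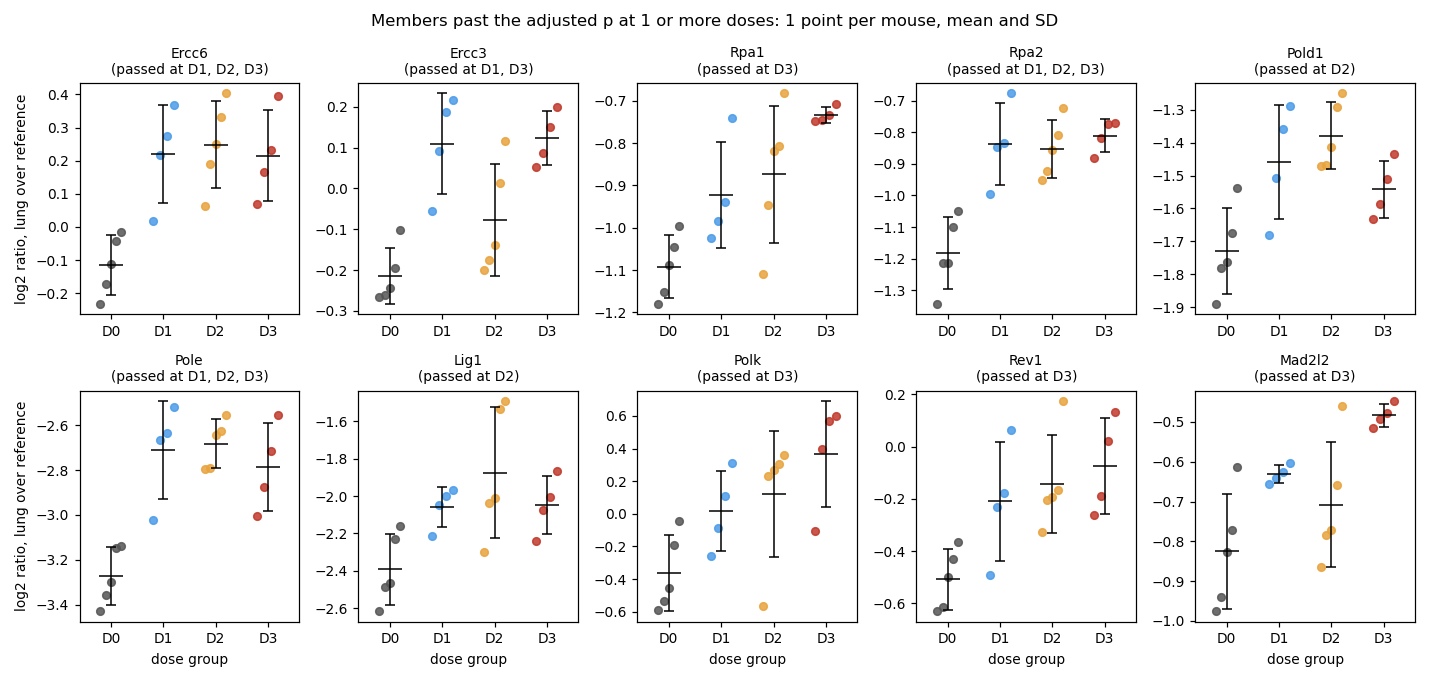
Log2 ratio of lung over reference in each mouse by dose group for the 10 members that passed the adjusted p at 1 or more doses, with group mean and SD; each panel has its own axis. Pole, Rpa2 and Ercc6 stand above the vehicle mice at every dose, and Rpa1 and Mad2l2 at D3 form narrow groups.

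Of the 36 probes that did not pass at D3, 33 had a 95% interval wholly within 1.5-fold in either direction. The bounds of all 36 ran from -0.43 to 0.81 on the log2 scale. All D1, all D2 and all D3 mice lay above all vehicle mice for 6, 6 and 10 member probes, against 4.73%, 2.51% and 7.47% of all probes tested, and all D3 mice lay below for 0, against 7.17%.

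A linear trend over dose was rising for 5 member probes (Rpa1, Rpa2, Polk, Rev1 and Mad2l2) and falling for 0, beside 3.38% rising and 3.18% falling of all probes. The fitted change from the vehicle to the highest dose was 0.69 for Polk (adjusted p = 0.0225), 0.41 for Rev1 (adjusted p = 0.043), 0.34 for Rpa1 (adjusted p = 0.0138), 0.33 for Rpa2 (adjusted p = 0.0427) and 0.30 for Mad2l2 (adjusted p = 0.0376). The number of rising members was 1 without D0 mouse 1, D0 mouse 3 or D3 mouse 35. Tested as differences between doses, no member passed between D2 and D1 (0% of all probes), D3 and D2 (0.181%) or D3 and D1 (0.206%). At an unadjusted p of at most 0.05 in limma, 1 member probe was higher and 4 lower at D2 than at D1, 4 were higher and 0 lower at D3 than at D2, and 2 were higher and 0 lower at D3 than at D1. The shares of all probes were 3.94% higher and 5.89% lower, 5.78% and 5.92%, and 3.79% and 3.88% in the same order, so these member counts were near the background. The members that passed at D3 and not at D1 are therefore not shown to differ between these doses.

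Within slides, where 1 or 2 arrays stood in each group, the D3 means of all 10 members above were higher than the vehicle mean on each of the 3 slides. The 10 were picked because they passed on these same arrays, so these signs are no separate test. The other member probes were not split by slide. Slides 2 and 3 are not independent at D3, since the single D3 array of slide 3 is the repeat array of mouse 35, whose other array is on slide 2. The D3 differences on slides 1, 2 and 3 were 0.86, 0.56 and 1.01 for Polk, 0.42, 0.64 and 0.54 for Pole, and 0.36, 0.45 and 0.29 for Rpa2. At D1, Rev1 and Mad2l2 differed by -0.06 and -0.03 on slide 3. At D2, Polk and Mad2l2 differed by -0.11 and -0.05 on slide 3, whose D2 array is that of mouse 23.

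**Figure D4:**
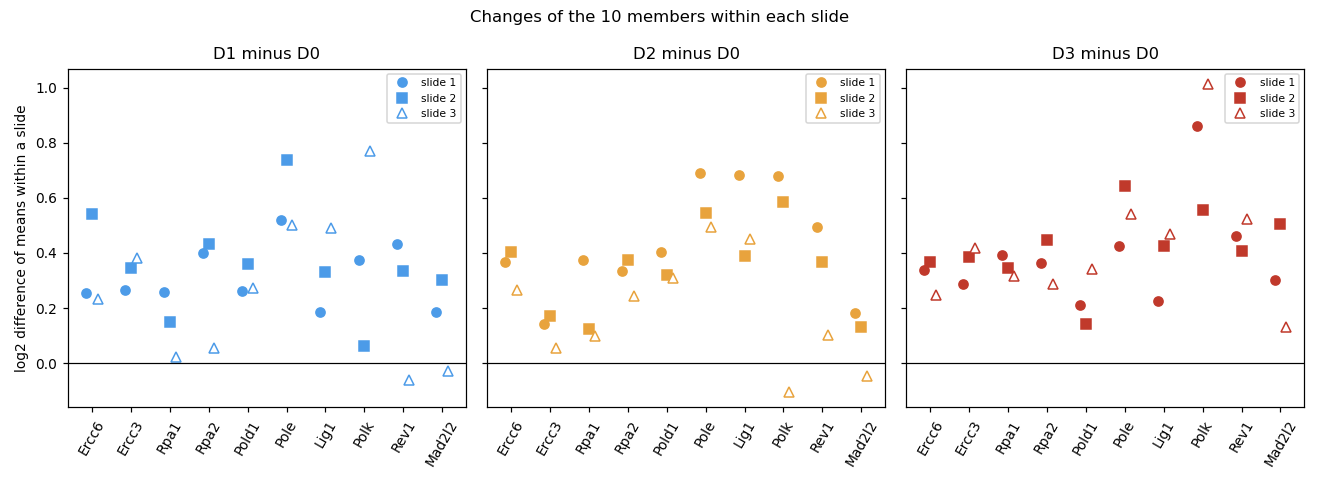
Difference between the mean log2 ratio of a dose group and of D0 on the same slide, for the 10 members and each of 3 slides. The 10 were picked because they passed on these same arrays. All 30 D3 points lie above 0, from 0.13 (Mad2l2 on slide 3) to 1.01 (Polk on slide 3); the slide 3 points at D3 come from the repeat array of mouse 35, which is also on slide 2.

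Other genes of the same pathways were counted in the same way. Of 27 probes of other excision repair genes, 2 rose at each dose (7.41%, beside 2.42%, 1.37% and 6.03% of all probes at D1, D2 and D3) and none fell. Rfc5, a subunit of the clamp loader, rose by 0.27, 0.38 and 0.32 at D1, D2 and D3 (adjusted p = 0.033, 0.00409 and 0.00572). Pold2, the second subunit of polymerase delta, passed at D1 (0.36), Rfc1 at D2 (0.29) and Cops5, a subunit of the signalosome, at D3 (0.25). Of 23 probes of other damage tolerance genes, 1, 1 and 2 rose at D1, D2 and D3 (4.35%, 4.35% and 8.7%), and 2 fell at D3 (8.7%, beside 6.37% of all probes). Dtl, a ubiquitin ligase adaptor that acts on PCNA-bound proteins, was up by 0.75, 0.76 and 0.74, and Zranb3, a fork-remodelling helicase, rose by 0.80 at D3. The 2 probes that fell at D3 were both of Ube2b (-0.38 and -0.39), the ubiquitin-conjugating partner of Rad18, whose remaining probe was at -0.22 and did not pass.

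For comparison, 15 of 20 probes of p53 reference targets rose at D3 with a median change of 1.05, and 12 and 14 rose at D1 and D2. Cdkn1a, the cell cycle inhibitor, rose by 3.08 and 3.12 at D3 on its 2 probes, Ccng1 and Phlda3 both by 2.19. Base excision and mismatch repair genes gave 2 rises (9.52%) and 1 fall (4.76%) among 21 probes at D3, with a median of 0.12. At D1 and D2, 3 and 2 of these probes rose (14.3% and 9.52%) and 0 fell. Of all probes, 2.42%, 1.37% and 6.03% rose at D1, D2 and D3. Genes of homologous recombination, end joining and crosslink repair gave 5 rises among 21 at D3 (23.8%), with Bard1, Prkdc and Brca2 among them. None fell, and the median was 0.12, near the 0.15 of the members. At D1 and D2, 4 and 3 of these probes rose (19% and 14.3%). The shares of member probes that rose were lower, at 9.09%, 11.4% and 18.2% at D1, D2 and D3.

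Markers of proliferation rose as well. Of 19 such probes, 12, 8 and 4 rose at D1, D2 and D3, with median changes of 0.68, 0.48 and 0.26. Their mean ratio per mouse, relative to the D0 mean, ran from -0.07 to 0.06 in D0, from 0.43 up to 0.89 at D1, from 0.31 up to 0.77 at D2 and from 0.10 up to 0.61 at D3. Mki67 rose by 1.53, 1.17 and 0.62 on its leading probe. Pole, Pold1, Lig1, Rpa1 and Rpa2 also act in replication, and the part of proliferation in their changes was not tested. The same mean over the 44 member probes ran from -0.04 to 0.03 in D0, from 0.09 up to 0.14 at D1, from 0.05 up to 0.19 at D2 and from 0.12 up to 0.17 at D3.

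**Figure D5:**
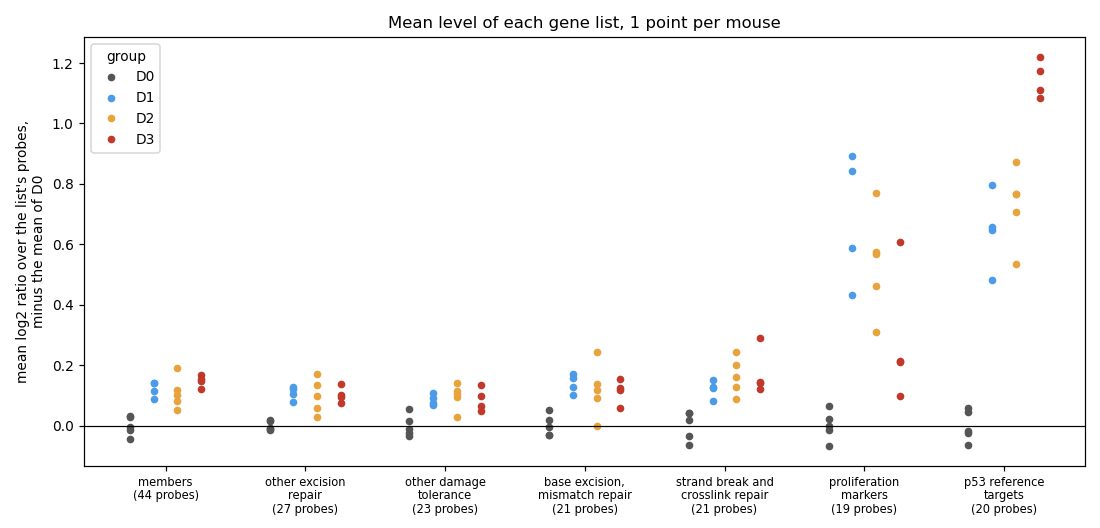
Mean log2 ratio over the probes of each gene list in each mouse, minus the mean of D0, by dose group. The members shift by at most 0.19, proliferation markers are highest at D1 and p53 targets reach 1.08 to 1.22 at D3.

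Markers of some cell types moved as well. At D1, 1 of 6 NK cell marker probes fell, and 1 of 6 neutrophil and 1 of 6 endothelial probes rose. At D2, 2 of 6 NK cell probes and 1 of 4 alveolar macrophage probes fell, and 1 of 6 neutrophil probes rose. At D3, 3 of 6 NK cell marker probes fell (Gzma by -3.07), 3 of 6 neutrophil probes rose (S100a8 by 1.77), 2 of 8 alveolar type 2 probes fell (Abca3 by -0.48 and Sftpb by -0.36), 1 of 5 fibroblast probes fell and 1 of 6 endothelial probes rose. In D0 the mean neutrophil marker ratio ran from 1.66 to 2.70. It ran from 2.72 to 3.02 at D1, from 2.56 to 3.32 at D2 and from 2.56 to 4.03 at D3. The 4.03 was D3 mouse 34, and the next highest D3 mouse was at 2.82. In D0 the mean NK marker ratio ran from 1.35 to 2.21. It ran from 0.91 to 1.54 at D1, from 0.79 to 1.31 at D2 and from 0.72 to 1.13 at D3. Heart muscle markers, which gave no call, had mean ratios from 2.46 to 3.29 in D0, from 0.66 to 4.22 at D1, from 0.42 to 3.84 at D2 and from 0.58 to 3.98 at D3. The lowest values belonged to D1 mouse 24, D2 mouse 28 and D3 mouse 35, and every other mouse was at 2.46 or above. Beyond the counts without those 3 mice, the part of these cell types in the members' changes was not tested.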

How the data were processed

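Lung RNA of 18 mice was measured on 19 arrays on 3 slides (8, 7 and 4 arrays). The deposited scanner files hold intensity values as the authors' scanner software wrote them, and the deposited series table holds the authors' normalized log2 ratios, which correlated with those computed here at 0.995 to 0.998 per array. The headers name Feature Extraction 11.0.1.1 and scanner G2505C, which differ from the study's methods. Per the labels, lung was always Cy5 and the reference Cy3, so dye bias was not balanced. After control and outlier spots (171 to 323 per array) had been removed, uncorrected median signals were normalized by loess (span 0.3) and averaged over the spots of a probe. A probe was tested where red was well above background in at least 4 mice of 1 group (30999 of 55681 probes), since 54.5% to 64.7% of spots per array were. Symbols came from RefSeq identifiers matched to a gene table (27235 of 28685 probes). Groups were fitted with limma 3.58.1 in R 4.3.3 (lmFit, eBayes) in 1 model of 4 groups, in place of the study's MAANOVA. Benjamini-Hochberg adjustment ran over all 30999 probes. Values are mean differences ± SE, and the number of arrays limits the precision. The normexp alternative used median signals, since mean signals were not used here. The probe brightest in red stands for a gene, and values for every mouse are given for members past the adjusted p at a dose and, chosen after their values were seen, for Xpc, Ddb2 and the dimmer Polk probe. The functions were tested on simulated data. Some genes of the comparison lists are not reported here. The member list, the other gene lists and the tests were chosen with earlier results of these data known.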

Additional observations from a re-analysis of the deposited data

Results flagged for a closer look

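One value stood apart from its group. The Polk ratio of D2 mouse 23 was -0.56, while the other 4 D2 mice lay between 0.23 and 0.36, and its gap to the nearest of them was 0.856 of the whole range of the group, above the critical value of 0.71 for 5 samples. This is the array whose number falls among those of D1. Of the 52 groups of the 13 probes given mouse by mouse this was the only one past the critical value, and over all 176 groups of the 44 tested probes 6 were, where chance gives about 1 in 20. Counted in D1, mouse 23 leaves a D2 change of Polk of 0.65 (adjusted p = 0.0402, limma).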

How the results depend on the processing

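No call of a member changed direction under the 30 alternatives tried for each, 18 of which leave out 1 mouse, and 422 of 510 recomputed values stayed past the threshold. Pole at each dose, and Ercc3, Rpa1, Rpa2 and Mad2l2 at D3, lost the call under median centring only. Median centring left 0 members higher at D1, D2 and D3, 0 past both thresholds at D2 and D3 and 0 with a rising trend, and its cause was not tested. Processed signals gave 1 lower at D3 and 2, 2 and 4 past both thresholds at D1, D2 and D3, and the red channel alone gave 1 at D1. With slide as a block 7 and 13 were higher at D1 and D3, 1 and 2 were lower, and 1 had a falling trend. Without the filter on dim probes 2 had a rising trend, and fits of only the groups compared gave 2 higher at D1 and 2 at D2. By the adjusted p alone, 1468, 647 and 3843 of all probes were called at D1, D2 and D3 in the main fit. The calls were 1494, 704 and 3854 with processed signals and 1406, 724 and 3307 with the red channel alone. They were 1114, 543 and 3195 without the filter and 983, 421 and 3459 in fits of only the groups compared.

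Leaving out together the 3 mice low in heart muscle markers, an alternative chosen after the data were seen that has fewer samples, gave 1 higher at D2 (Pole), 0 past both thresholds at D2 and D3 and 1 with a rising trend. It lost the calls of Ercc6 at each dose, of Rpa2, Lig1 and Pold1 at D2 and of Rev1 and Polk at D3, and gained the dimmer Gtf2h2 probe at D1 and D3. Among all probes it left 1292, 490 and 2500 calls at D1, D2 and D3, against 1468, 647 and 3843 in the main fit. The changes of the members named stayed above 0. Over all 30 alternatives their lowest values were 0.29, 0.32 and 0.27 for Ercc6 at D1, D2 and D3. They were 0.29, 0.41 and 0.31 for Rpa2, Lig1 and Pold1 at D2, and 0.36 and 0.65 for Rev1 and Polk at D3.

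Leaving out each mouse in turn, the number higher ran from 2 to 5 at D1, from 1 to 5 at D2 and from 5 to 9 at D3. The number lower was 0 to 1 at D1 and 0 to 2 at D3. The number past both thresholds was 0 or 1 at D1, from 0 to 2 at D2 and 0 or 1 at D3. A rising trend was left for 1 to 5, and 0 to 1 differed between D2 and D1. Calls among all probes in either direction ran from 818 to 1646 at D1, from 359 to 667 at D2 and from 2450 to 3949 at D3. At D3 the lowest member count, 5, came without D3 mouse 35, which also removed the 1 member past both thresholds. Without that mouse the D3 calls among all probes fell as well, from 3843 to 2450. At D2 the member count was 1 without D2 mouse 28 and 2 without D0 mouse 3 or 4. It was 3 when 1 of D0 mice 1, 2 and 5 or of D2 mice 29 and 30 was left out. At D1 it was 2 without D0 mouse 3, D0 mouse 4 or D1 mouse 25. No paired analysis was possible because no mouse number is shared between groups; the matching by slide is the fit with slide as a block, given above. Apart from median centring and left-out mice, the Ercc6 call at D1 was lost with the deposited log2 ratios and without the filter on dim probes, and the calls of Ercc6 and Rpa2 at D1 and of Rpa2 and Pold1 at D2 were lost in fits of only the groups compared, which gained Mnat1 at D1 and D3. The dimmer Gtf2h2 probe was gained at D1 with processed signals and at D1 and D3 with the red channel alone. Rev1 at D2 was gained with normexp, Xpc at D3 with processed signals and with the deposited ratios, and Pold1 at D1 and Rad23b (lower) at D3 with processed signals. Calls gained by leaving out 1 mouse were Gtf2h5 (lower at D1 without D0 mouse 5 or D1 mouse 21, and at D3 without D0 mouse 5), Rad23b (lower at D3 without D0 mouse 5 or D3 mouse 32), Rad18 (D1, without D0 mouse 1), Ercc1 and Pold1 (D1, without D1 mouse 22), Gtf2h2 (D1, without D1 mouse 24), Mnat1 (D1 and D3, without D2 mouse 29) and Polk (D2, without D2 mouse 23). Signals near background leave Rrm2b without a comparison.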
